A study of Homo sapiens with 7 samples.

Results

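The nuclear receptor genes comprise 45 members of the human nuclear receptor family, taken by symbol, of 20162 protein-coding genes in the annotation. Their loci were examined in Kasumi-1, a myeloblast line from peripheral blood that carries the t(8;21) translocation and expresses the fusion protein AML1-ETO. The labels name no treatment or genotype contrast, and all lists come from this 1 line. ChIP-seq, which uses an antibody to recover and sequence the DNA around a protein or histone mark, gave 1 list each for H3K4me3 (19632 summits), AML1-ETO (18087), AML1 (11692), p300 (11020) and N-CoR (10004). The AML1 antibody recognizes the part of AML1 that the fusion lacks, and the AML1-ETO list was made with an antibody against ETO. Each list pools 2 biological replicates, and it holds positions without heights or read counts, so the depth behind a summit and the spread between replicates are unknown from the files and no test was made. A gene was counted at its start when a summit lay within 1 kb of any annotated transcription start site (TSS) of that gene, and in its locus when a summit lay in the gene body or within 5 kb of it. Shares are set beside those of all protein-coding genes, and exact Clopper-Pearson 95% intervals cover counting error only.

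Nuclear receptors are transcription factors, many of which bind DNA as partners of a retinoid X receptor (RXR) and are switched by a small lipophilic ligand. Without ligand, receptors for retinoic acid and thyroid hormone recruit the co-repressor N-CoR and its histone deacetylase complex, and with ligand they exchange it for co-activators such as the acetyltransferase p300. In the myeloid lineage, retinoic acid signalling through RARA and RXRA is known for its part in granulocyte differentiation, and N-CoR also binds the ETO portion of AML1-ETO. H3K4me3 is a histone mark of active or poised transcription starts.

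AML1-ETO and N-CoR windows overlapped at 14 of the 45 genes (31.1% against 19.1% of protein-coding genes), and AML1-ETO and p300 windows at 10 (22.2% against 15.3%). For 8 of the 14 genes, those whose first such window came earliest in the AML1-ETO list, the following line gives the 100 bases around the AML1-ETO summit with the lowest peak number that overlapped an N-CoR window, 5′ to 3′ on the strand of the gene (GRCh37). Capitals mark TGTGGT (Runx), GAGGAA (PU.1), AGGTCA (nuclear receptor half-site) and AGGAAG (ETS core) on either strand, and GAGGAA and AGGAAG can overlap.
PPARD, chr6:35338300-35338399, intron: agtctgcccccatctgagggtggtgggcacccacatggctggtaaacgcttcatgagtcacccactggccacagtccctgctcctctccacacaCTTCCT
RXRA, chr9:137295929-137296028, exon: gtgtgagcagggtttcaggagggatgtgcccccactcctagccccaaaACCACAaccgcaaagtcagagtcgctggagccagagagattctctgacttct
RARB, chr3:25336038-25336137, intron: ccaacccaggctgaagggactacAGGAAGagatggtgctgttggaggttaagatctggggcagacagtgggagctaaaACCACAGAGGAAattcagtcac
RARA, chr17:38478886-38478985, intron: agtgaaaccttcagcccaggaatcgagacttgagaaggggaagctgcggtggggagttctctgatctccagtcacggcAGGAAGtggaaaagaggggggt
RARG, chr12:53611165-53611264, intron: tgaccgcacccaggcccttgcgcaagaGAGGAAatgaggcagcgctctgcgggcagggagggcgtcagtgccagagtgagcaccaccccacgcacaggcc
NR1H3, chr11:47290514-47290613, exon: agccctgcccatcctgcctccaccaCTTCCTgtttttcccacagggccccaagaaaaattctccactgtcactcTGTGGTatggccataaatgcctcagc
NR4A3, chr9:102581806-102581905, upstream: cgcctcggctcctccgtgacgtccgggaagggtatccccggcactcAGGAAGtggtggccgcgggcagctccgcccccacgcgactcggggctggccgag
NR6A1, chr9:127275998-127276097, downstream: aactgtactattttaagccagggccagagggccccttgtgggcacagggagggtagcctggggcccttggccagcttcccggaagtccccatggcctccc
Matches to the Runx letters were found in the windows of RXRA, RARB and NR1H3, and to the ETS core in those of PPARD, RARB, RARA, NR1H3 and NR4A3. PU.1 letters were found in the windows of RARB and RARG, none of the 8 windows held the nuclear receptor half-site, and that of NR6A1 held none of the 4 words.

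At the level of the locus, AML1-ETO was found at 25 of the 45 genes (55.6%, interval 40.0 to 70.4) against 41.4% of protein-coding genes, and N-CoR at 17 (37.8%, 23.8 to 53.5) against 26.7%. The co-activator p300 was found at 24 (53.3%) against 45.5%, AML1 at 19 (42.2%) against 34.9% and H3K4me3 at 33 (73.3%) against 68%. All but 1 of the N-CoR genes also held AML1-ETO: both were found at 16 loci (35.6%, 21.9 to 51.2) against 22.7%, and 13 of these held p300 as well (28.9% against 18%). AML1-ETO without N-CoR was found at 9 loci (20% against 18.6%), of which 5 held p300 (11.1% against 10%). The shares of the receptor genes lay above those of protein-coding genes, and each interval given included the share of protein-coding genes. Any of the 5 lists was found at 34 of the 45 loci (75.6% against 74.2%).

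With any annotated start counted, the receptor genes were close to the background at their starts. AML1-ETO lay within 1 kb of a TSS at 12 genes (26.7%, 14.6 to 41.9) against 23.3% of protein-coding genes, and N-CoR at 6 (13.3%, 5.05 to 26.8) against 13.3%. Both were at a start of 5 genes (11.1% against 9.69%), namely RARA, NR1H3, RXRA, ESR1 and NR4A2. Of the 12 genes with AML1-ETO at a start, 11 had H3K4me3 at that or another start (24.4% of the 45 against 21.6%), and 7 had it within 1 kb of the AML1-ETO summit itself (THRA, VDR, NR1H3, NR1D2, NR2F6, ESR2 and NR4A2). The count of 7 was not computed over all protein-coding genes, so it is a description of these genes only. H3K4me3 marked 27 genes (60%) against 62.3%, p300 was found at 14 (31.1%) against 37% and AML1 at 7 (15.6%) against 18.6%. H3K4me3 without AML1, AML1-ETO, N-CoR or p300 was found at the starts of 7 genes (15.6% against 18.4%), and p300 without H3K4me3 at those of 0 of 45 (exact upper bound 7.87%) against 0.585%. The receptor genes are longer, with a median of 53.7 kb against 27.2 kb for protein-coding genes, and have a median of 8 annotated starts against 5. With 1 start per gene, the first base of the gene span, the shares of receptor genes were below those of protein-coding genes for each list: 37.8% against 54.2% for H3K4me3, 17.8% against 32.2% for p300, 13.3% against 17.4% for AML1-ETO, 8.89% against 14.2% for AML1 and 2.22% against 9.49% for N-CoR. Per Mb of locus, AML1-ETO gave 9.95 summits against 9.22, N-CoR 5.27 against 5.03, p300 5.86 against 6.64 and AML1 4.83 against 5.86. H3K4me3 gave 11.1 against 12.4. On this scale AML1-ETO and N-CoR at receptor genes lay slightly above all protein-coding genes, and AML1, p300 and H3K4me3 lay below them, whereas the locus shares lay above for each list. The plot of shares by list shows both counts side by side.

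**Figure D1:**
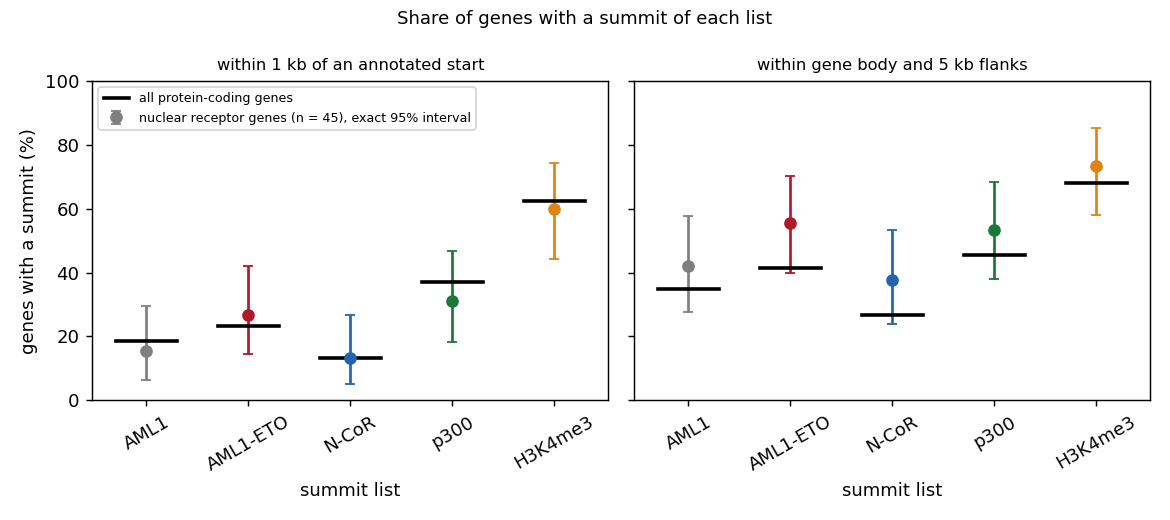
Percent of genes (vertical axis) with a summit of each list (horizontal axis), within 1 kb of an annotated start (left) and within the gene body and 5 kb to either side (right). Points are the 45 nuclear receptor genes with exact 95% intervals, which cover counting error only, and black bars are the 20162 protein-coding genes; AML1-ETO and N-CoR points lie above the bars on the right and near them on the left.

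The summits were spread unevenly over the family. RXRA held 11 AML1-ETO summits, RARA 8, PPARD 7, NR4A2 and ESR1 5 each, and RARB, RARG and NR4A3 3 each. ESRRA and NR6A1 also held 3, and the tie was settled by the lowest peak number. The first 8 genes carried 45 of the 68 AML1-ETO summits and 24 of the 36 N-CoR summits of the family. In all, 10 of the 45 genes (22.2%, 11.2 to 37.1) had 3 or more AML1-ETO summits, against 9.04% of protein-coding genes. This count was not adjusted for gene length, and the part of length in it was not tested. At the other end, 11 genes had no summit of any list in their locus (24.4% against 25.8%), namely THRB, PPARG, NR1H4, RORA, RORB, RXRG, HNF4A, NR2E1, NR2E3, PGR and NR0B2. For these, the nearest AML1-ETO summit lay between 7128 bp (THRB) and 408640 bp (NR2E3) from the gene.

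**Figure D2:**
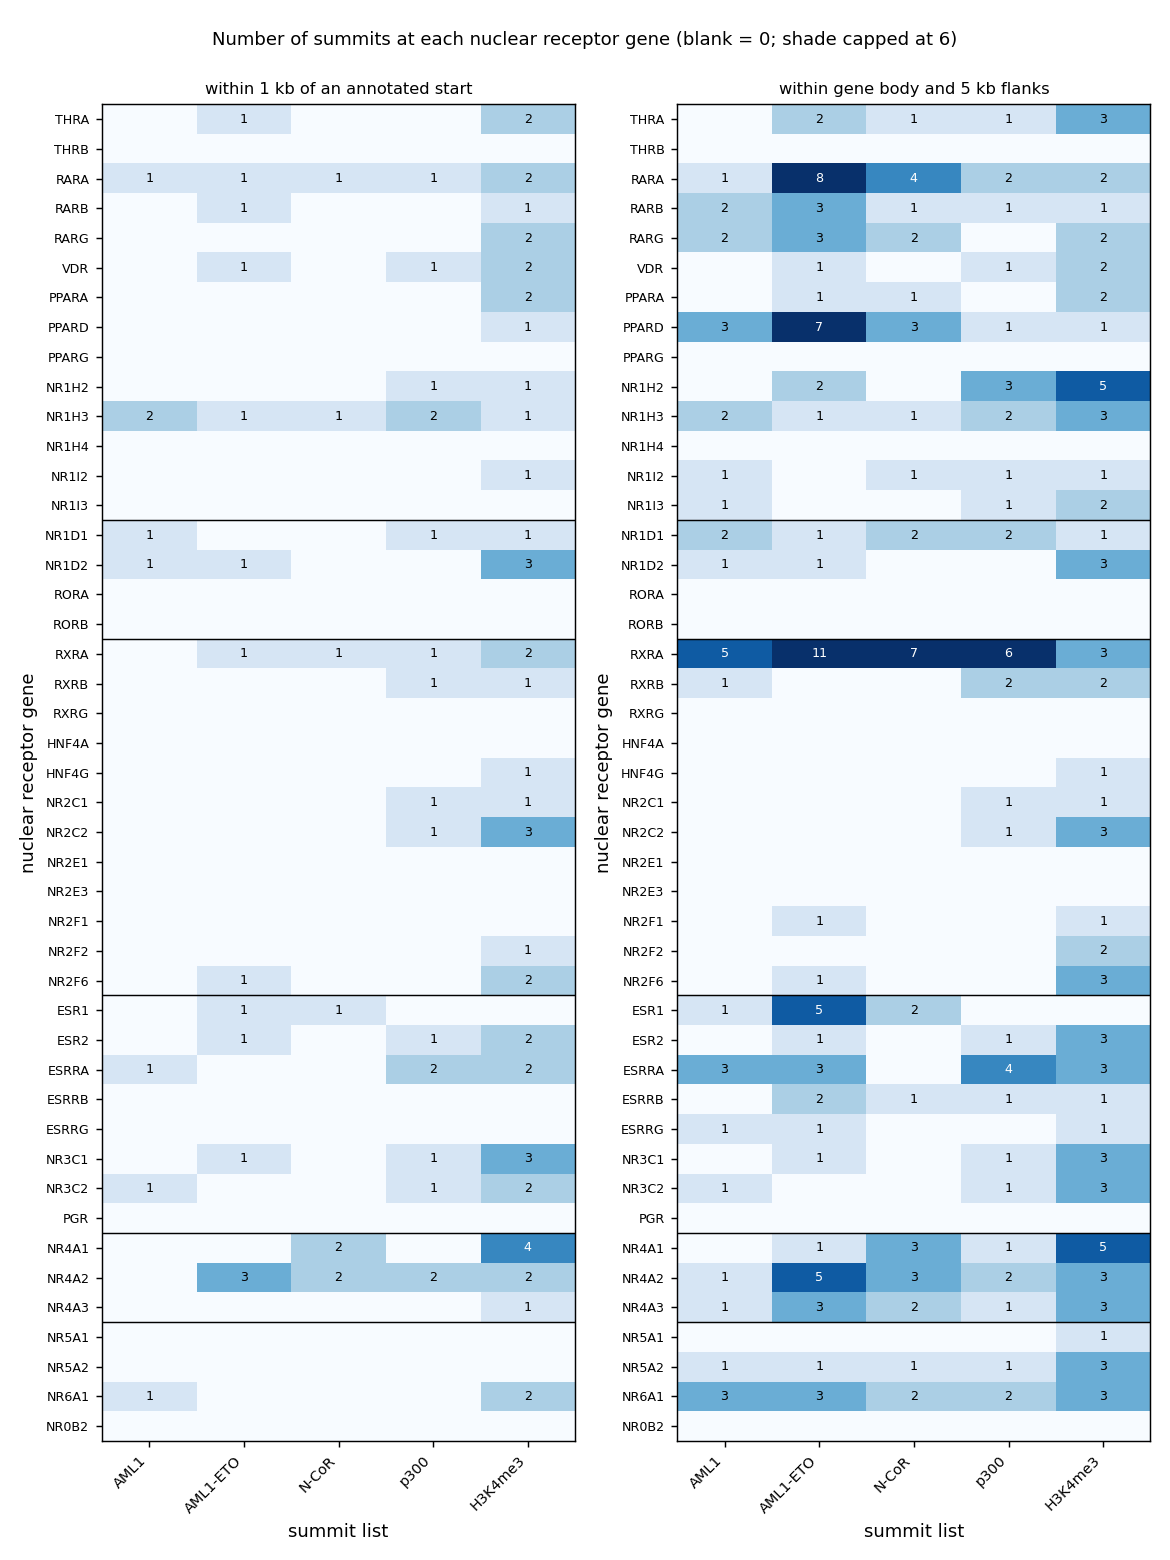
Number of summits of each list (columns) at each of the 45 nuclear receptor genes (rows, grouped by receptor class), within 1 kb of an annotated start (left) and within the gene body and 5 kb flanks (right); blank cells are 0. The right panel shows RXRA with 11 AML1-ETO, 7 N-CoR and 6 p300 summits, and 11 genes with blank rows.

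Among the 14 hormone and lipid receptors that pair with RXR, AML1-ETO was found in 9 loci (64.3% against 41.4% of protein-coding genes), N-CoR in 8 (57.1% against 26.7%), p300 in 9 (64.3% against 45.5%) and H3K4me3 in 11 (78.6% against 68%). With so few genes in a class, these shares are descriptions. The retinoic acid receptors were all in this group. RARA (chr17:38465432-38513895), the receptor fused in acute promyelocytic leukemia, held 8 AML1-ETO, 4 N-CoR, 2 p300, 1 AML1 and 2 H3K4me3 summits. Each of its 8 AML1-ETO summits was intronic, 4 overlapped N-CoR and 2 of those also overlapped p300. The window printed above lay 308 bp upstream of the start of a non-coding RARA transcript, with N-CoR 16 bp, p300 23 bp and AML1 31 bp away, and the nearest H3K4me3 summit 4228 bp away. It was the single RARA window in which AML1, AML1-ETO, N-CoR and p300 all overlapped.

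RARB (chr3:24729378-25639423), a second retinoic acid receptor, held 3 AML1-ETO, 1 N-CoR, 1 p300, 2 AML1 and 1 H3K4me3 summits over 910 kb. Its AML1-ETO summit with N-CoR at 26 bp, p300 at 7 bp and AML1 at 7 bp was intronic, 120477 bp from the nearest RARB start. Another lay 907 bp upstream of the first annotated start with the nearest N-CoR summit 8340 bp away, and H3K4me3 lay 19 bp from another start. The H3K4me3 summit of the gene was thus apart from its AML1-ETO summits, the nearest of which was 133271 bp away. RARG held 3 AML1-ETO, 2 N-CoR, 2 AML1 and 2 H3K4me3 summits, without p300. Its intronic AML1-ETO summit had N-CoR 1 bp and AML1 9 bp away, and the other 2 were downstream of the gene and nearer to the start of ITGB7.

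PPARD (chr6:35310335-35395968), a receptor for fatty acids, held 7 AML1-ETO, 3 N-CoR, 1 p300, 3 AML1 and 1 H3K4me3 summits. Its start carried H3K4me3 at 94 bp and no other list within 1 kb. The 3 AML1-ETO summits that overlapped N-CoR lay 5976, 27958 and 28690 bp downstream of the nearest start, and the one at 27958 bp also overlapped p300. That summit was number 224 of the AML1-ETO list and its N-CoR partner number 71 of the N-CoR list, but what the order of the lists stands for is not stated. Of the 4 others, 3 were nearer to the start of FANCE. PPARA, another fatty acid receptor, held 1 AML1-ETO and 1 N-CoR summit 1585 bp apart, each in an intron, and PPARG, the adipocyte member, held none.

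NR1H3, which encodes the oxysterol receptor LXRα, held 1 AML1-ETO, 1 N-CoR, 2 p300, 2 AML1 and 3 H3K4me3 summits. AML1-ETO lay 2 bp from N-CoR, 23 bp from p300 and 12 bp from AML1, at the 3′ end of the gene. This summit was 871 bp from an inner NR1H3 start but 149 bp from the start of MADD, so it can be assigned to either gene. NR1H2 (LXRβ) held 2 AML1-ETO and 3 p300 summits without N-CoR, and 1 of its AML1-ETO summits lay 103 bp from the start of POLD1. The vitamin D receptor VDR held 1 AML1-ETO summit, 952 bp downstream of a start, and p300 77 bp from that start. THRA, a thyroid hormone receptor, held AML1-ETO 691 bp from a start with H3K4me3 416 bp from the summit and without N-CoR there.

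The xenobiotic receptor NR1I2 was the 1 locus with N-CoR and no AML1-ETO. Its N-CoR summit lay 1432 bp from a start with AML1 10 bp and p300 21 bp away, and the nearest AML1-ETO summit was 310098 bp away. The window is printed because it is this exception, and it was chosen after its values were seen. TGTGGT is in capitals.
NR1I2, N-CoR, chr3:119502940-119503039, intron: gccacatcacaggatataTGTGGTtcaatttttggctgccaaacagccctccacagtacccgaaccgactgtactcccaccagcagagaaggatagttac

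Of the REV-ERB and ROR genes, which act in the circadian clock, the REV-ERB genes held summits in their loci and RORA and RORB did not. This rests on the 5 kb limit for RORA. The nearest summits there lay 9072 bp (AML1-ETO), 9084 bp (AML1), 9274 bp (p300) and 9403 bp (H3K4me3) from the gene. NR1D1 (REV-ERBα) held 1 AML1-ETO, 2 N-CoR, 2 p300, 2 AML1 and 1 H3K4me3 summits. AML1-ETO lay 4464 bp from a start with N-CoR 23 bp away, and this pair also falls in the 5 kb flank of the neighbouring gene THRA. NR1D2 (REV-ERBβ) held AML1-ETO 154 bp from a non-coding start with AML1 29 bp away, and no N-CoR or p300.

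RXRA (chr9:137208944-137332431), the common partner of the retinoic acid, thyroid hormone, vitamin D and lipid receptors, was the member with most AML1-ETO (11), N-CoR (7), p300 (6) and AML1 (5) summits, and it held 3 H3K4me3 summits. Of its 11 AML1-ETO summits, 8 were intronic, 6 overlapped N-CoR, 4 overlapped p300, 4 overlapped AML1, and 5 overlapped neither co-regulator. Each of the 4 with p300 also overlapped N-CoR. At a non-coding inner start, AML1-ETO lay 5 bp, N-CoR 50 bp and p300 29 bp upstream, and the nearest H3K4me3 summit was 35695 bp away. H3K4me3 was found 650 bp and 747 bp from another start, where no N-CoR summit lay within 1 kb. The third H3K4me3 summit lay in an intron, 356 bp from AML1-ETO, 414 bp from N-CoR, 320 bp from p300 and 410 bp from AML1. The locus maps show that the other clusters along the gene body were apart from H3K4me3.

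Among the other genes of the NR2 class, RXRB held 2 p300, 1 AML1 and 2 H3K4me3 summits, its p300 summits lying 54 bp from the start of SLC39A7 and 4 bp from that of HSD17B8, and RXRG held none. NR2F6 held AML1-ETO 619 bp upstream of its start, with H3K4me3 208 bp from the summit and the nearest N-CoR summit 31282 bp away. NR2F1 held AML1-ETO 3921 bp upstream. NR2C1 and NR2C2, orphan receptors known for repressor function, held p300 2 bp and 12 bp from a start, H3K4me3 within 1 kb of a start, and neither AML1-ETO nor N-CoR. Over the 12 genes of the class, AML1-ETO was found in 3 loci (25% against 41.4% of protein-coding genes), N-CoR in 1 (8.33% against 26.7%), p300 in 4 (33.3% against 45.5%) and H3K4me3 in 8 (66.7% against 68%).

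**Figure D3:**
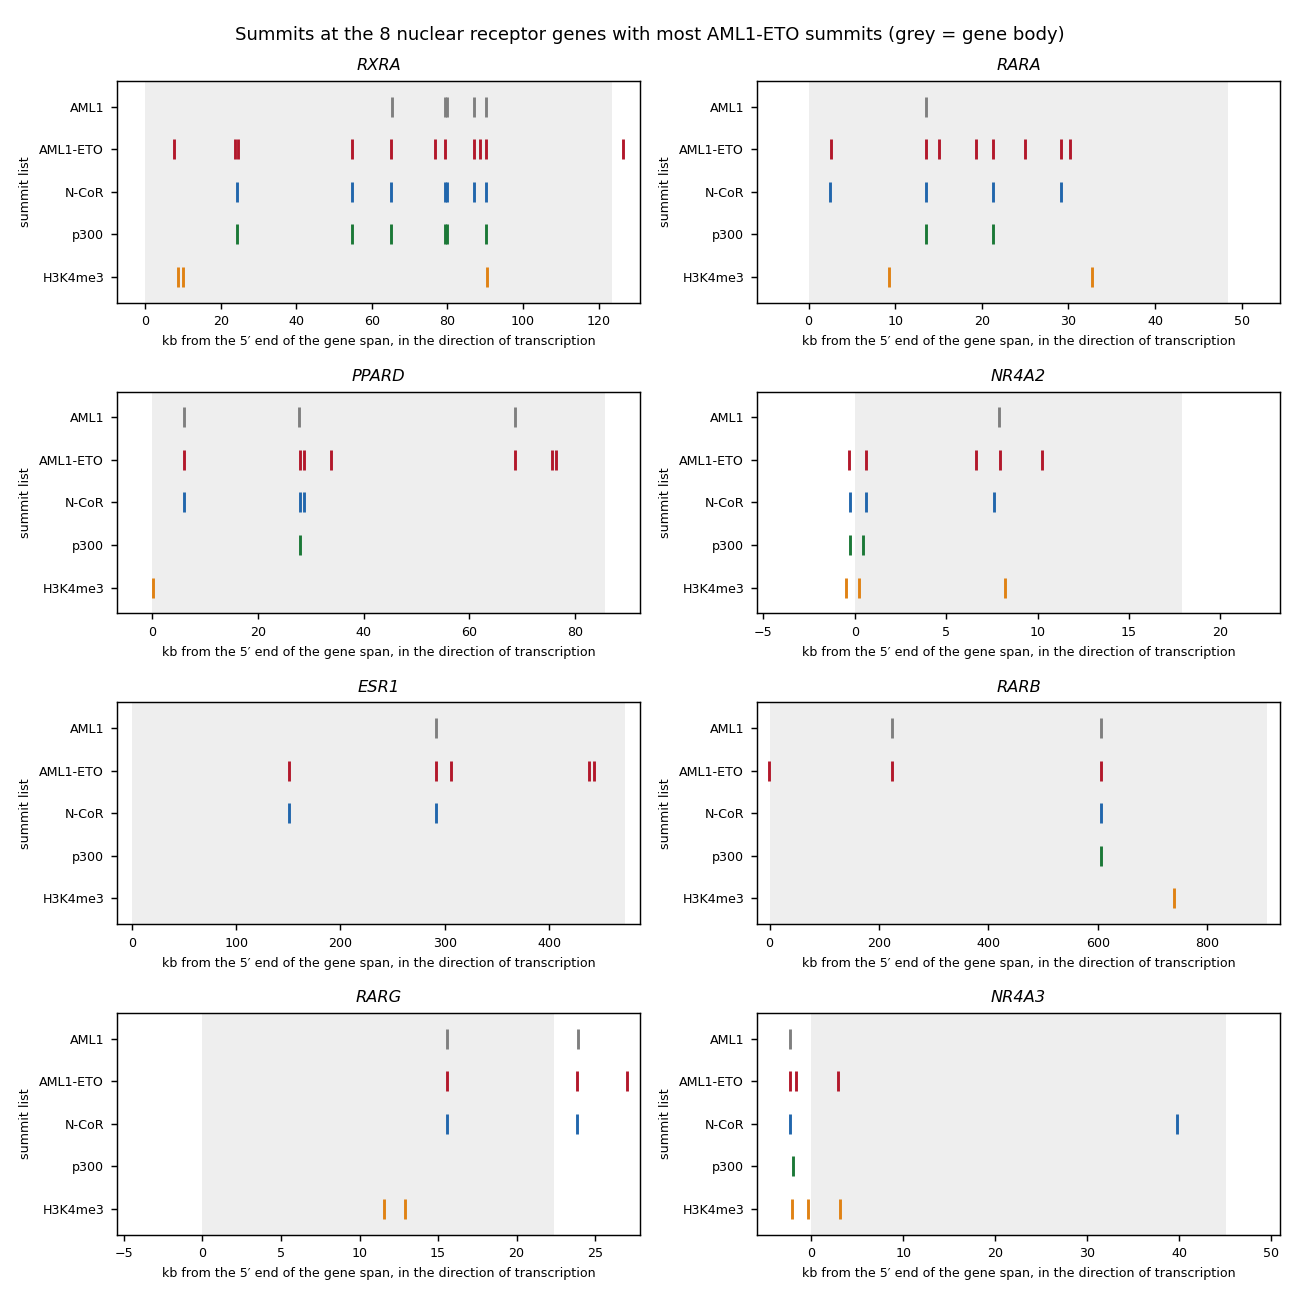
Position of each summit (ticks) of the 5 lists (rows) in kb from the 5′ end of the gene, in the direction of transcription, at the 8 nuclear receptor genes with most AML1-ETO summits (ties at 3 settled by the lowest peak number); grey is the gene body. N-CoR overlaps 6 of the 11 AML1-ETO summits at RXRA, 4 of 8 at RARA and 3 of 7 at PPARD, each of these inside the gene body. At NR4A2, 2 of the 3 N-CoR ticks stand at the first start beside H3K4me3.

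Of the 8 steroid and estrogen-related receptors, AML1-ETO was found in 6 loci (75% against 41.4% of protein-coding genes), N-CoR in 2 (25% against 26.7%) and p300 in 5 (62.5% against 45.5%). ESR1, which encodes estrogen receptor alpha, held 5 AML1-ETO, 2 N-CoR and 1 AML1 summits and neither p300 nor H3K4me3. AML1-ETO lay 40 bp and N-CoR 41 bp upstream of a coding start, and the nearest H3K4me3 summit was 313280 bp and the nearest p300 summit 354950 bp from it. ESR1 was the 1 gene of the 12 with AML1-ETO at a start that had no H3K4me3 within 1 kb of any start (2.22% of the 45 against 1.76% of protein-coding genes). The window, chosen after its values were seen, held none of the 4 words.
ESR1, AML1-ETO, chr6:152128242-152128341, intron: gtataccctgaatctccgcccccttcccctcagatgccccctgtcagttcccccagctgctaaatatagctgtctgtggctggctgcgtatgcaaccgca
The second ESR1 site with both factors lay 4407 bp from a start, with N-CoR 28 bp and AML1 38 bp from AML1-ETO. ESR2, which encodes estrogen receptor beta, held 1 AML1-ETO summit 710 bp upstream of its first start with p300 224 bp away and no N-CoR. NR3C1, the glucocorticoid receptor gene, held AML1-ETO 27 bp from its first annotated start, whereas p300 lay 33 bp from another start, 30129 bp from the AML1-ETO summit. ESRRA held 3 AML1-ETO, 4 p300 and 3 AML1 summits, but its AML1-ETO summits were nearer to the starts of CATSPERZ, TRMT112 and PRDX5. At ESRRB, AML1-ETO and p300 had the same summit position in an intron, 7 bp from N-CoR. The mineralocorticoid receptor gene NR3C2 held p300, AML1 and H3K4me3 without AML1-ETO, and the progesterone receptor gene PGR held no summit.

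The NR4A genes are immediate early genes, and loss of NR4A1 and NR4A3 together is known to cause myeloid leukemia in mice. Each of the 3 held AML1-ETO, N-CoR and p300 in the locus, as did 18% of protein-coding genes, and each held H3K4me3. NR4A2 (chr2:157180949-157198860) held 5 AML1-ETO, 3 N-CoR, 2 p300, 1 AML1 and 3 H3K4me3 summits over 17.9 kb. At its first start, AML1-ETO lay 321 bp, N-CoR 256 bp and p300 252 bp upstream, and AML1-ETO lay 636 bp and N-CoR 610 bp downstream. NR4A2 was the 1 receptor gene with N-CoR within 1 kb of the start of the gene span, the 5 others with N-CoR at a start having it at inner starts. NR4A1 held 3 N-CoR summits and 1 AML1-ETO summit, and none of these overlapped. Of its N-CoR summits, 2 lay 152 and 223 bp upstream of inner starts and were 469 and 373 bp from H3K4me3, with the nearest AML1-ETO summit 11088 and 25242 bp away. The third lay 3991 bp upstream of an inner start, 4308 bp from H3K4me3 and 7249 bp from AML1-ETO. NR4A3 held 3 AML1-ETO, 2 N-CoR, 1 p300, 1 AML1 and 3 H3K4me3 summits. The pair printed above lay 2282 bp (AML1-ETO) and 2357 bp (N-CoR) upstream of its start, with AML1 2 bp from the N-CoR summit. The N-CoR summits thus stood apart from AML1-ETO at NR4A1.

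Of the remaining 4 genes, NR5A2 held 1 summit each of AML1-ETO, N-CoR, p300 and AML1 in an intron 110550 bp from its nearest start, with N-CoR 47 bp and p300 25 bp from AML1-ETO. NR6A1, an orphan receptor of germ cells, held 3 AML1-ETO, 2 N-CoR, 2 p300 and 3 AML1 summits, and its printed window lay downstream of the gene and nearer to NR5A1. NR5A1 itself held 1 H3K4me3 summit only, and NR0B2 held none. The NR5A1 summit lay downstream of the gene, 24521 bp from its nearest start and 7907 bp from the start of ADGRD2.

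Taking the 68 AML1-ETO summits at receptor genes one by one, 26 (38.2%, 26.7 to 50.8) overlapped an N-CoR window, against 38.9% of all AML1-ETO summits, and 15 (22.1%) overlapped p300, against 21.8%. Both co-regulators overlapped at 13 (19.1% against 15.7% of all AML1-ETO summits) and N-CoR alone at 13 (19.1% against 23.2%). Overlap with p300 alone was found at 2 (2.94% against 6.10%) and with neither at 40 (58.8% against 55.0%). Overlap with AML1 was found at 20 (29.4%, 19.0 to 41.7), which was below the 46.2% of all AML1-ETO summits. Windows of AML1, N-CoR and p300 all overlapped AML1-ETO at 7 summits (10.3% against 11.8%), in RARA, RARB, RXRA, NR1H3, NR5A2 and NR6A1. Of the 36 N-CoR summits, 26 (72.2%) overlapped AML1-ETO, against 70.3% of all N-CoR summits, 16 (44.4%) overlapped p300, against 37.4%, and 8 (22.2%) had H3K4me3 within 1 kb, against 26.9%. The 10 N-CoR summits without AML1-ETO were 3 at NR4A1 and 1 each at PPARA, NR1I2, NR1D1, RXRA, NR4A2, NR4A3 and NR6A1. Of the 40 p300 summits, 24 (60%, 43.3 to 75.1) had H3K4me3 within 1 kb, against 71.7% of all p300 summits. The whole lists include summits outside genes. Among summits in the loci of protein-coding genes, H3K4me3 lay within 1 kb of 77.4% for p300 and 33.1% for N-CoR. The overlap of AML1-ETO with N-CoR and with p300 at receptor genes was thus close to that of the whole lists when all peaks were used, and its overlap with AML1 was lower. With the first 5000 peaks of each list, the share of AML1-ETO summits was 50% for AML1 (53.8% of all), 68.2% for N-CoR (54.4% of all) and 13.6% for p300 (20.4% of all).

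**Figure D4:**
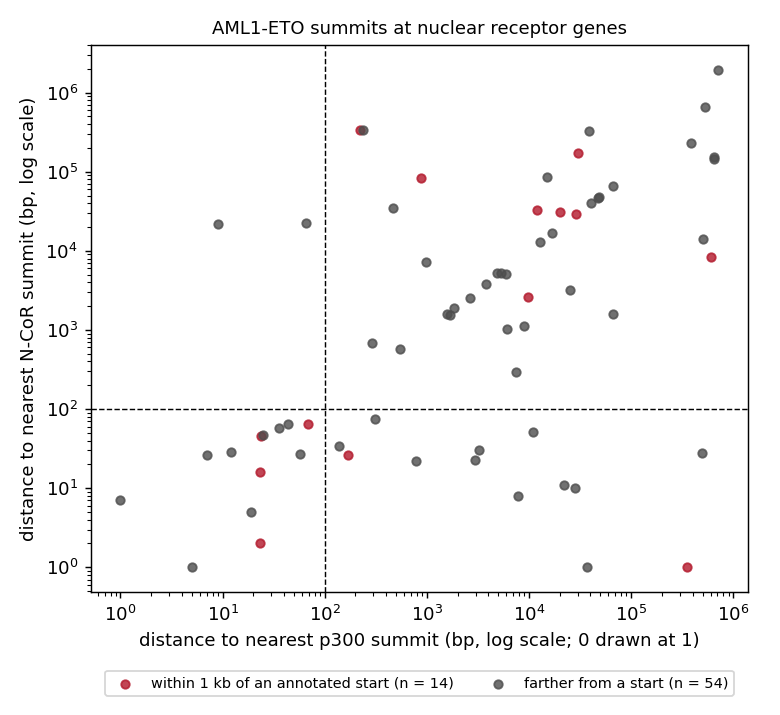
Distance in bp from each of the 68 AML1-ETO summits at nuclear receptor genes to the nearest p300 summit (horizontal, log scale) and the nearest N-CoR summit (vertical, log scale); dashed lines stand at 100 bp, red points lie within 1 kb of an annotated start and grey points farther away. The upper left region, with p300 near and N-CoR far, holds 2 points, both at ESRRA.

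Summits were counted only in and near genes, and within these loci AML1-ETO and N-CoR lay mostly farther than 1 kb from a start. Of the 68 AML1-ETO summits, 47 were intronic, 6 exonic, 8 upstream and 7 downstream, and 14 were within 1 kb of a start, as were 8 of 36 N-CoR, 8 of 33 AML1, 17 of 40 p300 and 48 of 76 H3K4me3 summits. The median distance to a start of the same gene was 4912 bp for AML1-ETO, 4410 bp for N-CoR, 3469 bp for AML1, 2044.5 bp for p300 and 502.5 bp for H3K4me3. For 13 AML1-ETO and 3 N-CoR summits the start of another protein-coding gene was nearer. These positions and distances were not computed over all protein-coding genes, whose median length is shorter. They therefore describe the receptor genes without showing a difference from other genes. N-CoR was in the locus but not at a start of 11 of its 17 genes (64.7%, against 50% of the protein-coding genes with N-CoR in the locus), AML1-ETO of 13 of its 25 (52% against 43.6%) and p300 of 10 of its 24 (41.7% against 18.7%).

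Sequence words were counted on either strand within 50 bp of a summit. GAGGAA (PU.1) was found in 36.8% of the AML1-ETO windows at receptor genes (25.4 to 49.3), against 26.0% of all AML1-ETO windows, and TGTGGT (Runx) in 27.9% against 31.3%. AGGAAG (ETS core) was found in 38.2% against 37.5%. In the N-CoR windows, AGGAAG was found in 44.4% against 46.2%, GAGGAA in 30.6% against 30.8% and TGTGGT in 16.7% against 19.5%. The nuclear receptor half-site AGGTCA was found in 2 of 68 AML1-ETO windows (2.94% against 3.77%), in PPARA and ESR1, and in 1 of 36 N-CoR windows (2.78% against 4.38%), in PPARA. The steroid receptor half-site AGAACA was found in 3 of 68 AML1-ETO windows (4.41% against 6.03%). The N-CoR windows at receptor genes thus held ETS letters more often than the letters of the receptors themselves, as did all N-CoR windows.

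In all, 53 genes that supply ligands, respond to the receptors or form their co-regulator complexes were examined alongside. AML1-ETO was found in 27 of these loci (50.9% against 41.4% of protein-coding genes), N-CoR in 18 (34% against 26.7%), p300 in 28 (52.8% against 45.5%), AML1 in 18 (34% against 34.9%) and H3K4me3 in 36 (67.9% against 68%). Of the 6 LXR target genes, which act in cholesterol efflux and lipid synthesis, N-CoR was within 1 kb of a start at 4 (ABCG1, SREBF1, MYLIP and LPCAT3) and in the locus of 5, against 13.3% and 26.7% of protein-coding genes. AML1-ETO was at a start of 1 of the 6 (MYLIP) and in the locus of 4 (ABCA1, ABCG1, SREBF1 and MYLIP), against 23.3% and 41.4%. ABCG1, a cholesterol exporter, held 7 N-CoR, 6 AML1-ETO and 4 p300 summits. Of the 12 genes of retinoid supply and clearance, AML1-ETO was found at 4 (33.3% against 41.4% of protein-coding genes) and N-CoR at 2 (16.7% against 26.7%). These 2 were ALDH1A2 and DHRS3. ALDH1A2, which makes retinoic acid, held 6 AML1-ETO, 4 N-CoR and 3 AML1 summits and neither p300 nor H3K4me3. DHRS3, a retinal reductase, held 3 AML1-ETO, 3 N-CoR, 2 p300 and 1 H3K4me3 summits. These are counts, and none was tested.

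The co-repressor complex itself was represented. NCOR1, which encodes N-CoR, held 1 N-CoR, 2 p300 and 1 AML1 summits and no AML1-ETO. TBL1XR1, an exchange factor of the complex, held 3 AML1-ETO and 4 N-CoR summits, all within 1 kb of a start, and GPS2 held H3K4me3 only. Of the 5 p160 and mediator genes, p300 and H3K4me3 were at a start of each, against 37% and 62.3% of protein-coding genes. Of the 5 PPAR targets, AML1-ETO was found at 3 (60% against 41.4%) and N-CoR at 1 (20% against 26.7%). ANGPTL4 and PLIN2 held AML1-ETO and H3K4me3 only, and PDK4 and FABP4 held no summit. CPT1A, which brings fatty acids into mitochondria, held 8 AML1-ETO, 4 N-CoR and 4 p300 summits. Of the 5 glucocorticoid-related genes, 4 held AML1-ETO (FKBP5, TSC22D3, PER1 and DUSP1) and 1 held N-CoR (DUSP1), against 41.4% and 26.7%. N-CoR was found at 0 of 5 vitamin D and 0 of 5 thyroid hormone genes, against the same 26.7%.

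H3K4me3 was found at a start of each of 8 myeloid markers, MPO, KIT, CD34, CD33, PTPRC, SPI1, ELANE and CD38, and at no start of CD3E, ALB, INS, NEUROD1, MYOD1 or KRT5, which mark other lineages. These markers did not go against the labelled cell type. Several values lay near the 1 kb limit. Just inside it, AML1-ETO lay 952 bp from a VDR start and 907 bp from a RARB start, and just outside it 1017 bp from an ESRRA start and 1234 bp from an NR1H2 start. For N-CoR, NR1H3 at 873 bp was just inside, and NR1I2 at 1432 bp and NR1D1 at 1558 bp were outside. When only the first base of each gene span was used as its start, AML1-ETO was counted at 6 genes and N-CoR at 1 (NR4A2).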

How the data were processed

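The authors aligned reads of 2 biological replicates per antibody to GRCh37 (hg19) with Bowtie 0.12.8, with up to 2 mismatches, pooled the replicates and called peaks with MACS2 2.0.10.20131216 at p < 1e-20. CASAVA 1.6 is also named in the submitters' processing notes. The control used for peak calling is not given in the sources used here. The deposited lists hold positions only (BED start and end of 100 bp windows), with no score. The peak names of the N-CoR, p300 and H3K4me3 lists carry prefixes that name other antibodies; each list was assigned by its sample record. The libraries for H3K27me3 and input were not used here, and some genes of the lists examined alongside are not reported here.

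Summits (start + 50) were placed on GENCODE 44 lifted to GRCh37, with 20162 protein-coding genes and any annotated transcript start. Windows sharing at least 1 bp overlapped. All 45 genes are counted. Each gene with AML1-ETO or N-CoR within 1 kb of a start is described, as are the 8 with most AML1-ETO summits (ties by lowest peak number). Not every summit of these genes is given in the text. Windows are printed for up to 8 genes with overlapping AML1-ETO and N-CoR. The genes and lists were chosen with earlier results of these data known, and the ETS core was added after the windows were seen. In place of a stricter threshold, the first 5000 peaks of each list were tried. On simulated data, 1000 of 1000 planted overlaps were recovered. The tools were pysam 0.24.0, SciPy 1.17.1, numpy 2.4.6 and matplotlib 3.10.9 under Python 3.11.15.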

Additional observations from a re-analysis of the deposited data

How the results depend on the processing

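Of 80 recomputed shares, 61 stayed on the same side of the background share and 19 changed side. In the locus, the shares for p300, N-CoR, AML1-ETO and AML1 stayed above the background in each alternative, and that of H3K4me3 fell below it with the first 5000 peaks (24.4% against 32.1%). None of these alternatives adjusted for gene length. Per Mb of locus, p300 (5.86 summits against 6.64), AML1 (4.83 against 5.86) and H3K4me3 (11.1 against 12.4) lay below the background. AML1-ETO (9.95 against 9.22) and N-CoR (5.27 against 5.03) lay slightly above it. At a start, AML1-ETO fell below it within 500 bp (13.3% against 20.6%), with 1 start per gene (13.3% against 17.4%) and with coding transcripts (20% against 21.2%). With only the start of the gene span as TSS, the numbers of receptor genes within 1 kb were 17 for H3K4me3 (37.8% against 54.2%), 8 for p300 (17.8% against 32.2%), 6 for AML1-ETO, 4 for AML1 (8.89% against 14.2%) and 1 for N-CoR (2.22% against 9.49%). With coding transcripts only, N-CoR was at a start of 3 genes, and within 500 bp AML1-ETO was at 6. With the first 5000 peaks of each list, the numbers at a start were 10 for H3K4me3 (22.2% against 28.1%), 8 for p300 (17.8% against 19.8%), 5 for N-CoR (11.1% against 5.10%), 4 for AML1-ETO (8.89% against 5.69%) and 4 for AML1 (8.89% against 7.35%), and in the locus 11 for H3K4me3, 13 for p300 (28.9% against 25.7%), 14 for N-CoR (31.1% against 13.8%), 13 for AML1-ETO (28.9% against 15.1%) and 12 for AML1 (26.7% against 17.5%). In that setting 68.2% of AML1-ETO summits at receptor genes overlapped N-CoR (54.4% of all), 50% overlapped AML1 (53.8% of all) and 13.6% overlapped p300 (20.4% of all), and the cause of the change was not tested. When a summit counted only for the gene with the nearest start, AML1-ETO was in 23 loci (51.1% against 33.4%) and N-CoR in 15 (33.3% against 21.0%). With all annotated genes as background, AML1-ETO was at a start of 10.6% of genes and N-CoR in the locus of 13.7%. In size, 63 of the 80 stayed within 1.5 times the reported count or within the interval of the reported share. No paired analysis was possible because replicates were pooled before peak calling, and for the same reason no replicate could be left out. The lists carry no depth, so an absent summit means only that no peak passed the authors' threshold.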
